A study of Mus musculus with 16 samples.

Results

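Transcripts of the nuclear pore complex and of the carriers that move cargo through it were followed in WT and Psma7 cKO mouse oocytes. They were chosen by name, with earlier results of these data known. The rule took every entry called Nup with a number, Kpna or Ipo, together with Kpnb1, Pom121, Ndc1, Aaas, Rae1, Seh1l, Sec13, Tpr, Ranbp2 and Gle1. The table held 49 such entries under 44 gene names, of 28618 entries under 27987 names in all. Ipo8, Ipo11, Kpna6, Nup43 and Nup88 have 2 entries each, which the table does not tell apart by transcript and which are called entry 1 and entry 2 by their mean over all libraries, the higher first. The measurement was FPKM (fragments per kilobase of exon, scaled to library size), a level scaled to transcript length and to the library. Levels can thus be set side by side between genes, with a limit given below, but each value is a share of its library. The groups were GV oocytes, arrested before the first meiotic division with the nucleus intact, and ovulated eggs labelled MII, taken from females that were WT or Psma7 cKO, which makes 4 groups of 4 libraries. The paper reports that part of the ovulated Psma7 cKO oocytes had not completed the first meiotic division or remained at the GV stage. The labels do not say whether the egg pools held such oocytes. Psma7 encodes a subunit of the 20S proteasome core. In Psma7 cKO females (Zp3-Cre; Psma7 flox/flox), Zp3 drives Cre in growing oocytes only, so follicle cells keep the gene. Females were 3 to 4 weeks old and received 5 IU PMSG, after which GV oocytes were taken 44 h later. For eggs, hCG followed at 44 h, collection was 14 to 16 h after hCG, and cumulus cells were digested off with 0.3% hyaluronidase. The sample descriptions give 5 oocytes per library, whereas the paper's RNA-seq methods give a larger number per sample.

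The nuclear pore is built of nested rings of nucleoporins. The Y complex forms the outer rings and the inner ring anchors the central channel, whose FG nucleoporins carry repeats of phenylalanine and glycine and form the barrier. Filaments reach into the cytoplasm, and a basket hangs into the nucleus. Importin alpha proteins bind a nuclear localization signal and pair with importin beta (Kpnb1), whereas other importins carry their cargo directly. A GV oocyte has a large nucleus with a pore-rich envelope, and that envelope breaks down at maturation, so that an MII egg has no nucleus until fertilization. Many of these proteins and mRNAs are stored for the pronuclei of the embryo, and Kpna7 is an importin alpha found almost only in oocytes and early embryos.

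Libraries were of similar depth, estimated at 10.6 to 15.7 M fragments, and all 10 oocyte markers checked were expressed in every group. Of 12 cumulus and granulosa markers, 3 (Cyp19a1, Kitl and Nr5a2) had a mean of at least 1 FPKM in each group, whereas Amh, Foxl2, Has2, Lhcgr, Ptx3 and Tnfaip6 were below 0.1 FPKM in every library. The 12 summed to 15.4 to 20.0 FPKM in GV oocytes and to 19.3 to 23.1 FPKM in eggs, and their part in the results was not tested. Psma7 averaged 165 ± 25.3 FPKM in WT GV oocytes and 126 ± 32.1 FPKM in WT eggs (SD, n = 4). In Psma7 cKO it averaged 14.6 ± 2.82 FPKM and 39.7 ± 20.2 FPKM, which was 8.83% and 31.5% of the WT level (limma adjusted p = 8.98e-07 and 0.0359, the latter passing in 10 of 17 alternatives). Among Psma7 cKO eggs, Psma7 was 13.6 FPKM in replicate 1, 50.3 FPKM in replicate 2, 34.98 FPKM in replicate 3 and 59.9 FPKM in replicate 4. Replicate 1 was thus the lowest in Psma7, and it stood with WT eggs at both entries of Nup88, for which results are given with and without it.

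Maturation is also when stored mRNAs gain or lose poly(A) tails, and the libraries were primed from those tails, so a change in a transcript's amount and a change in its tail cannot be told apart here. The same limit holds for differences in FPKM between genes. The cytoplasmic polyadenylation element, which CPEB1 binds, lies near the 3′ end of an mRNA, and the last 100 bases of the 3′ UTR of 1 annotated transcript per gene were searched on the transcript strand for TTTTAT or TTTTAAT. All 39 names that were tested between WT GV oocytes and eggs had such an end in GENCODE M21 (GRCm38). At least 1 match was found in 6 of the 15 names that rose at maturation, 3 of the 18 that fell and 2 of the 6 that passed in neither direction. Over all 39 names, 11 held a match. Among all 8754 genes searched, 30.3% of those that rose, 13.8% of those that fell, 23.1% of the others and 20.1% overall held a match. Nup88, with 1 entry that rose and 1 that fell, is counted with entry 1. The matched stretches of the members that rose are shown here, 5′ to 3′, with the matched bases in capitals, because they are among the transcripts whose share grew. Where a gene held more than 1 match, as Nup54 did, the match nearest the 3′ end is shown.
Ipo8 (chr6:148770718-148770743, minus strand): atgcaggaacTTTTATgaatgtactg
Nup35 (chr2:80658883-80658902, plus strand): ctttgtcaatTTTTATgtgc
Nup37 (chr10:88178302-88178327, plus strand): aaatccttatTTTTATatcaaacata
Nup54 (chr5:92415540-92415559, minus strand): taatttgtaaTTTTATgtaa
Nup98 (chr7:102119472-102119497, minus strand): tTTTTATtaaaaaatatatatatata
Ranbp2 (chr10:58494284-58494309, plus strand): atgcaacttaTTTTAATtcctgttaa
The members that fell and yet held a match are shown for contrast.
Nup43 (chr10:7678813-7678838, plus strand): gttatcaaaaTTTTATcaccagaaag
Nup62 (chr7:44830713-44830738, plus strand): tcatgtctaTTTTATttctctgcact
Rae1 (chr2:173015645-173015670, plus strand): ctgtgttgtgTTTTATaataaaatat
No match was found in this window for Kpna2, Kpna7, Ipo9, Nup133 or Nup188. A match describes letters in the annotated end, which need not be the end that oocytes use.

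In WT GV oocytes the 2 most abundant members were importin alphas, Kpna2 at 1121 ± 64.5 FPKM and Kpna7 at 516 ± 53.6 FPKM (SD, n = 4). Next came the Y complex genes Sec13, whose protein is also a COPII coat subunit, at 353 ± 25.3 FPKM and Nup37 at 173 ± 24.5 FPKM. In WT eggs the order differed, with Sec13 at 515 ± 42.2 FPKM, Nup37 at 485 ± 26.5 FPKM, Kpna2 at 281 ± 5.29 FPKM and Kpna7 at 275 ± 13.7 FPKM. In WT eggs the libraries of Sec13 and Nup37 overlapped, as did those of Kpna2 and Kpna7, so the members of each pair did not differ beyond their spread, whereas every Nup37 value lay above every Kpna2 value. Partners in 1 complex were far apart in FPKM. In WT GV oocytes the Y complex ran from Nup133 at 5.35 ± 1.40 FPKM to Sec13, and the inner ring from Nup155 at 2.79 ± 0.41 FPKM to Nup35 at 109 ± 6.58 FPKM.

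Kpnb1, the partner of every importin alpha, was at 7.98 ± 0.88 FPKM in WT GV oocytes and 7.53 ± 0.76 FPKM in WT eggs. The sum of the importin alphas was 1721 ± 95.1 FPKM and 660 ± 13.4 FPKM in the same groups. Several members were barely detected. Kpna1 and Kpna4, importin alphas of many somatic tissues, stayed below 1 FPKM in all 16 libraries, with maxima of 0.53 and 0.62 FPKM, and so did the membrane nucleoporins Nup210 (up to 0.82 FPKM) and Nup210l (up to 0.081 FPKM). Kpna6 entry 2, Ipo11 entry 2 and the pseudogene Kpna2-ps reached at most 0.063, 0.096 and 0.18 FPKM, and Nup43 entry 2 was above 1 FPKM in 1 library. These 8 entries had a mean under 1 FPKM and were not tested. The other 41 were tested in GV oocytes and between stages, and 39 of them in eggs, where the means of Ipo7 and Ipo13 were also under 1 FPKM.

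**Figure D1:**
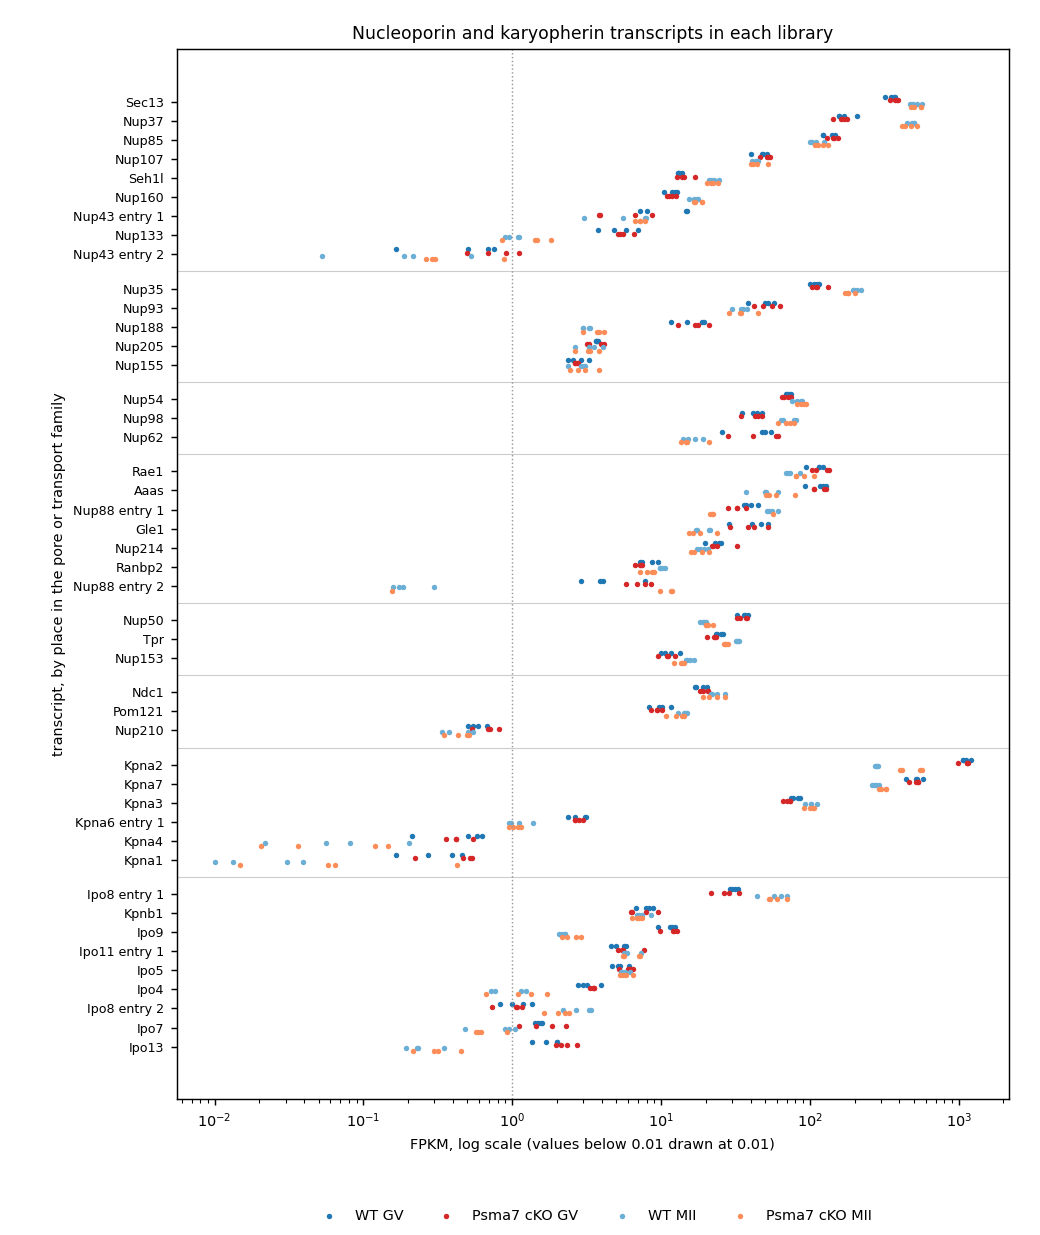
FPKM on a log scale (x axis) for 45 of the 49 entries (y axis, grouped by place in the pore or transport family), with 1 point per library coloured by group; the 4 entries with a mean under 0.1 FPKM are not drawn and the dotted line marks 1 FPKM. Kpna2 and Kpna7 lie furthest right in GV oocytes and are joined or passed by Sec13 and Nup37 in eggs.

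From GV oocyte to egg in WT, 16 of 41 members rose and 19 fell, against 26.1% and 52.4% of the 10475 entries tested (limma, Benjamini-Hochberg adjusted p under 0.05). Fold changes are of FPKM with values below 1 set to 1, so they understate the changes of low transcripts. The median log2 fold change was −0.12 over the members and −0.44 over all entries. Libraries of the 2 stages did not overlap for 32 members, against 72.7% of all entries. More than 3-fold changes were all falls, of 5 members (Ipo9, Nup188, Nup133, Kpna2 and Nup88 entry 2), beside 22.1% of entries lower and 1.07% higher by that measure.

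The pore scaffold split in both directions. In the Y complex 4 members rose, 3 fell and 1 passed in neither direction. Nup37 was 157, 171, 209 and 156 FPKM in WT GV oocytes and 503, 486, 448 and 505 FPKM in WT eggs. Every egg lay above every GV library, a log2 fold change of 1.50 (SE 0.10, adjusted p = 1.7e-07). Seh1l, whose protein also serves the GATOR2 complex, rose by 0.76, Sec13 by 0.54 and Nup160 by 0.51 on the log2 scale. Nup133, the stem subunit of the Y complex, was 7.04, 4.81, 3.77 and 5.78 FPKM in GV oocytes and 1.09, 1.12, 0.94 and 0.90 FPKM in eggs. Its fall of 2.31 on the log2 scale (SE 0.18, adjusted p = 6.7e-07) was measured against values near the floor of 1 FPKM, which limits its size.

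The inner ring and central channel split likewise. Nup35 rose from 109 ± 6.58 to 205 ± 12.0 FPKM (log2 fold change 0.92, SE 0.08, adjusted p = 9.4e-07). Nup188 was 19.5, 18.7, 11.7 and 14.9 FPKM in GV oocytes and 3.27, 3.33, 2.99 and 2.99 FPKM in eggs, with no overlap. It fell by 2.34 (SE 0.16, adjusted p = 2.2e-07), while its paralogue Nup205 had a log2 fold change of −0.15 (adjusted p = 0.37). Of the channel nucleoporins, Nup98, whose transcript also encodes the Y complex protein Nup96, rose by 0.78 and Nup54 by 0.22. Nup62, their partner in the channel, was 50.3, 47.6, 25.6 and 54.8 FPKM in GV oocytes and 16.9, 15.3, 19.2 and 14.1 FPKM in eggs. Nup62 fell by 1.40 (SE 0.22, adjusted p = 0.00013).

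On the cytoplasmic side 5 entries fell and 2 rose. Aaas, the gene of triple A syndrome, fell from 115 ± 15.6 to 49.7 ± 9.66 FPKM (log2 fold change −1.22, SE 0.15, adjusted p = 2.0e-05). Gle1, an activator of the helicase that strips exported mRNA, fell from 42.2 ± 10.1 to 19.3 ± 2.19 FPKM (log2 fold change −1.10, SE 0.17, adjusted p = 0.00013). The mRNA export factor Rae1 fell by 0.58 and Nup214 by 0.29. Ranbp2, a cytoplasmic filament protein with SUMO ligase activity, rose by 0.31. In the basket, Nup153 rose by 0.45 and Tpr by 0.40, whereas Nup50 fell by 0.90. Both tested membrane nucleoporins, Pom121 and Ndc1, rose, by 0.53 and 0.36.

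Among importin alphas, Kpna2, Kpna7 and Kpna6 entry 1 fell and Kpna3 rose. Kpna2 (chr11:106988629-106999541) was 1074, 1210, 1126 and 1074 FPKM in WT GV oocytes and 278, 287, 284 and 276 FPKM in WT eggs. All 4 eggs were tightly grouped and far below every GV library, a log2 fold change of −1.99 (SE 0.07, adjusted p = 1.8e-09). Kpna7 (chr5:144983519-145084030) was 528, 572, 443 and 519 FPKM in WT GV oocytes and 261, 279, 293 and 269 FPKM in WT eggs, again with no overlap. It fell by 0.90 (SE 0.09, adjusted p = 3.7e-06). Kpna6 entry 1 fell from 2.81 ± 0.36 to 1.10 ± 0.20 FPKM (log2 fold change −1.33, adjusted p = 1.4e-05). Kpna3 rose from 80.2 ± 4.70 to 101.9 ± 7.69 FPKM (log2 fold change 0.34, adjusted p = 0.0025). As shares of the importin alpha sum, Kpna2 went from 65.2% ± 2.00 to 42.6% ± 0.64, Kpna7 from 29.9% ± 2.11 to 41.7% ± 1.36 and Kpna3 from 4.68% ± 0.47 to 15.5% ± 1.30.

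In the importin beta family 2 entries rose, 4 fell and 3 passed in neither direction. Ipo9, a carrier of core histones and actin, was 11.8, 11.4, 9.53 and 12.5 FPKM in WT GV oocytes and 2.06, 2.26, 2.15 and 2.28 FPKM in WT eggs. Its fall of 2.37 (SE 0.12, adjusted p = 2.2e-08) was the largest of the 41 on the scale floored at 1 FPKM, which holds back the falls of members that ended near or under it. Ipo4, also a histone carrier, fell from 3.22 ± 0.52 to 0.97 ± 0.26 FPKM (log2 fold change −1.55, adjusted p = 3.0e-06). Both entries of Ipo8, a carrier linked to SMAD and Argonaute proteins, rose: entry 1 from 30.9 ± 1.76 to 58.9 ± 11.1 FPKM (log2 fold change 0.91, adjusted p = 7.5e-05) and entry 2 from 1.09 ± 0.23 to 2.88 ± 0.55 FPKM (1.34, adjusted p = 3.2e-05). Ipo7 and Ipo13 fell by 0.58 and 0.80, to means under 1 FPKM. Kpnb1, Ipo5 and Ipo11 entry 1 had log2 fold changes of −0.08, 0.10 and 0.23 that did not pass.

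In Psma7 cKO, 13 of 41 members rose and 17 fell at maturation, against 23.0% and 51.0% of the 10748 entries tested (limma). The median was −0.16 over the members and −0.42 over all entries. Libraries did not overlap for 26 members, against 68.6% of all entries. Falls of more than 3-fold numbered 3 (Ipo9, Nup188 and Nup133), and rises 0, beside 17.2% and 0.856% of all entries. Ipo9 fell by 2.23, Nup188 by 2.22, Nup133 by 2.00, Nup62 by 1.52, Ipo4 by 1.47, Kpna6 entry 1 by 1.38, Ipo13 by 1.19, Gle1 by 1.13 and Aaas by 0.95 on the log2 scale. Nup37 rose by 1.51 and Ipo8 entry 1 by 1.12. Kpna2 fell by 1.20 (SE 0.13, adjusted p = 3.7e-05) and Kpna7 by 0.72 (SE 0.08, adjusted p = 3.7e-05). Kpna3 rose by 0.50 (SE 0.08, adjusted p = 0.00037).

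How the sum of each library was scaled touched the smaller changes. Rescaling by the median ratio of expressed entries moved the median of all entries to −0.22 in WT and −0.17 in Psma7 cKO, and gave 18 members higher and 15 lower in WT, and 17 higher and 13 lower in Psma7 cKO. Over all entries the split went from 2738 higher and 5486 lower to 3457 and 4792 in WT, and from 2472 and 5482 to 3314 and 4574 in Psma7 cKO. The falls of Nup85 and Nup214 in both genotypes, of Nup43 entry 1 in WT and of Rae1 and Nup93 in Psma7 cKO no longer passed, and Ipo13, which fell in WT, was no longer tested there. Rises of Ipo5 and Ipo11 entry 1 in WT, and of Nup43 entry 1, Nup155, Ndc1 and Ranbp2 in Psma7 cKO, then passed. Nup107, Nup205 and Kpnb1 changed sign in both genotypes, and Ipo5 and Nup88 entry 1 did so in Psma7 cKO. None of these changes passed under either scaling.

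**Figure D2:**
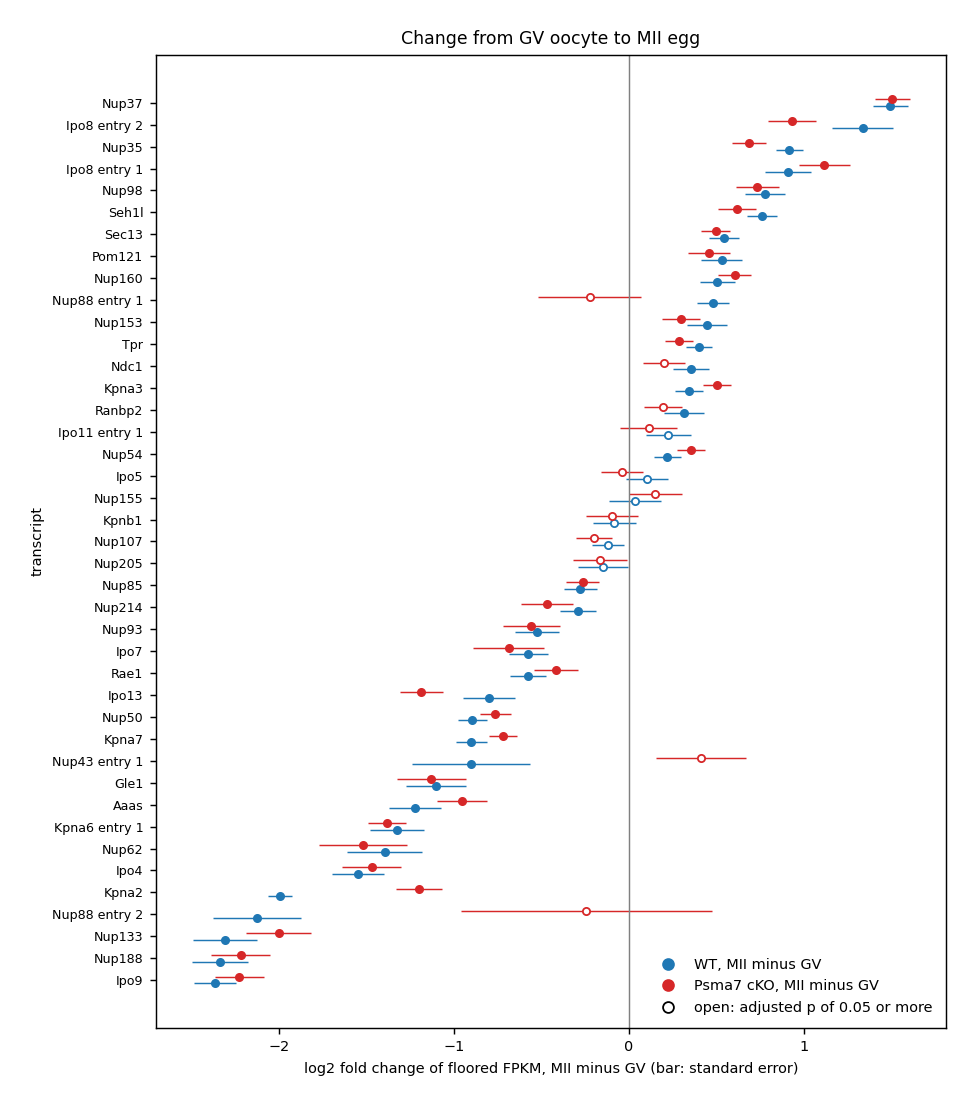
Log2 fold change of FPKM floored at 1, MII minus GV (x axis), for the 41 members tested (y axis, sorted by the WT value), with standard errors, WT in blue and Psma7 cKO in red; open points have an adjusted p of 0.05 or more. Most pairs of points lie close together, and Kpna2, Nup43 entry 1 and both Nup88 entries stand apart, of which only Kpna2 passed the test of the difference.

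In GV oocytes 0 of 41 members passed the limma threshold upwards in Psma7 cKO and 0 passed it downwards, where 0.0994% and 0.0181% of 11062 entries did. At an unadjusted p under 0.05, 1 was higher and 2 were lower, and 10.7% of all entries passed. No member was over 3-fold apart, beside 0.0362% of entries higher and 0.0271% lower by that measure. Libraries did not overlap for 2 members, Kpna3 and Tpr, against 6.67% of all entries. Kpna3 averaged 80.2 ± 4.70 FPKM in WT GV oocytes, against 70.9 ± 3.43 FPKM in the Psma7 cKO (log2 fold change −0.18, adjusted p = 0.47). Kpna2 was 1153, 1133, 1138 and 983 FPKM in Psma7 cKO GV oocytes, within the WT range but for replicate 4, and its log2 fold change was −0.03 (SE 0.09, adjusted p = 0.94). Kpna7 was 516, 529, 535 and 465 FPKM, all inside the WT range, with a log2 fold change of −0.01 (SE 0.10, adjusted p = 0.98). Nup43 entry 1 had the largest difference in size, −0.97 (SE 0.32, adjusted p = 0.29), with libraries that overlapped, from 7.23 to 15.0 FPKM in WT, against 3.82 to 8.67 FPKM in Psma7 cKO.

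In eggs 1 of 39 members was higher and 1 lower in Psma7 cKO (limma), against 6.53% and 1.49% of the 9492 entries tested. At an unadjusted p under 0.05, 4 were higher and 6 lower, beside 29.4% of all entries in either direction. Libraries did not overlap for 4 members (Kpna2, Tpr, Nup153 and Ranbp2), against 20.7% of all entries. Under median-ratio rescaling the split over all entries went from 620 higher and 141 lower to 510 and 207, and Kpna2 and Tpr still passed. The counts over all entries depended on single libraries. The 620 higher became 3 (without replicate 3) to 109 (without replicate 2) when 1 WT library was left out and 166 (without replicate 1) to 1024 (without replicate 2) when 1 Psma7 cKO library was left out, and 141 lower became 0 to 8 and 30 to 136.

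Kpna2 was the member that was higher. It was 566, 414, 553 and 403 FPKM in Psma7 cKO eggs, beside 278, 287, 284 and 276 FPKM in WT eggs. Every Psma7 cKO egg library was above every WT one, and the Psma7 cKO eggs fell into a higher and a lower pair. The log2 fold change was 0.76 (SE 0.12, adjusted p = 0.019), with a mean of 172% of WT. It passed in 13 of 17 alternatives, with adjusted p from 0.00047 to 0.074, and missed when low entries were kept and without WT replicate 1, 3 or 4 (adjusted p = 0.070, 0.058 and 0.057). Whether incompletely matured oocytes in the Psma7 cKO pools had a part in this difference was not tested.

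Kpna7 was 326, 323, 300 and 292 FPKM in Psma7 cKO eggs, beside 261, 279, 293 and 269 FPKM in WT eggs. The ranges overlapped by 1 library of each genotype, and the log2 fold change of 0.17 (SE 0.06, adjusted p = 0.12) did not pass. In eggs Kpna3 averaged 101.9 ± 7.69 FPKM in WT, against 100.4 ± 6.69 FPKM in the Psma7 cKO (log2 fold change −0.02, adjusted p = 0.89). The ratio of Kpna2 to Kpna7 ran from 0.97 to 1.07 in WT eggs and, without overlap, from 1.28 to 1.84 in those of Psma7 cKO females. In GV oocytes it ran from 2.03 to 2.54 in WT and from 2.11 to 2.23 in Psma7 cKO. As shares of the importin alpha sum in Psma7 cKO eggs, Kpna2 was 53.7% ± 4.66, Kpna7 34.8% ± 3.11 and Kpna3 11.3% ± 1.79. The sum itself was 896 ± 87.8 FPKM, beside 660 ± 13.4 FPKM in WT eggs.

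**Figure D3:**
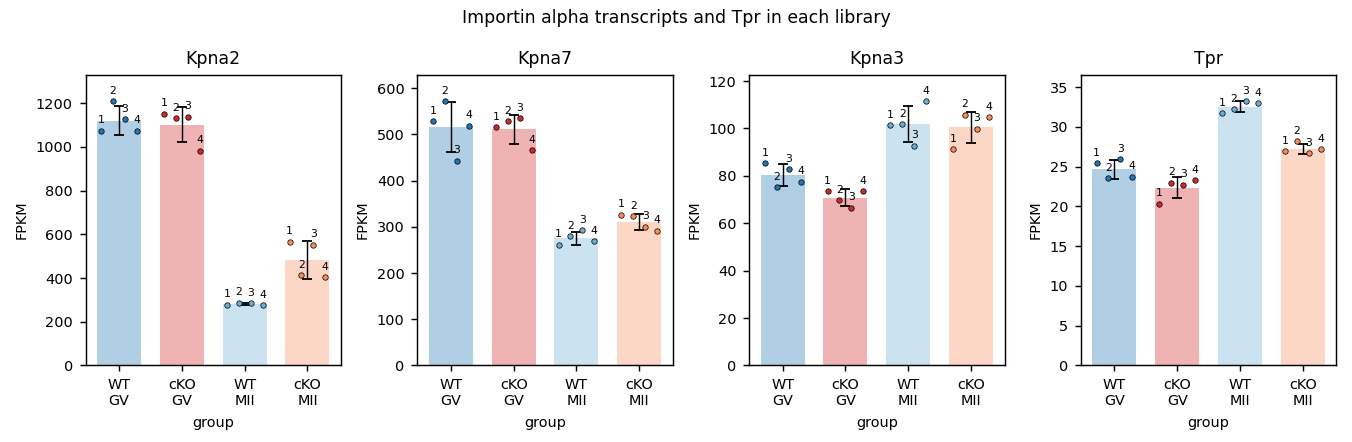
FPKM (y axis) of Kpna2, Kpna7, Kpna3 and Tpr in the 4 groups (x axis), with bars at the mean, error bars of 1 SD and numbered points for the 4 replicates. Kpna2 in Psma7 cKO eggs lies between its levels in GV oocytes and in WT eggs, and Tpr in Psma7 cKO eggs lies below WT eggs in all 4 libraries.

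Tpr (chr1:150392838-150449935), the large coiled-coil protein of the nuclear basket, was the member that was lower. It was 31.7, 32.2, 33.3 and 33.0 FPKM in WT eggs and 27.0, 28.2, 26.7 and 27.2 FPKM in Psma7 cKO eggs. The genotypes did not overlap, and the difference was small, a log2 fold change of −0.26 (SE 0.06, adjusted p = 0.038) or 83.8% of WT. It passed in 7 of 17 alternatives, with adjusted p from 0.017 to 0.0998, and of the 8 that leave out a library only the one without Psma7 cKO replicate 2 still passed (adjusted p = 0.040). The other basket proteins stood on either side, Nup153 at −0.20 (adjusted p = 0.15) and Nup50 at 0.11 (adjusted p = 0.32). Ranbp2, the other member without overlap, averaged 10.1 ± 0.37 FPKM in WT eggs, against 8.23 ± 0.76 FPKM in Psma7 cKO (log2 fold change −0.31, adjusted p = 0.078). The Y complex held 0 members past the threshold, with log2 fold changes from −0.08 to 0.41, and the inner ring 0, from −0.16 to 0.22.

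**Figure D4:**
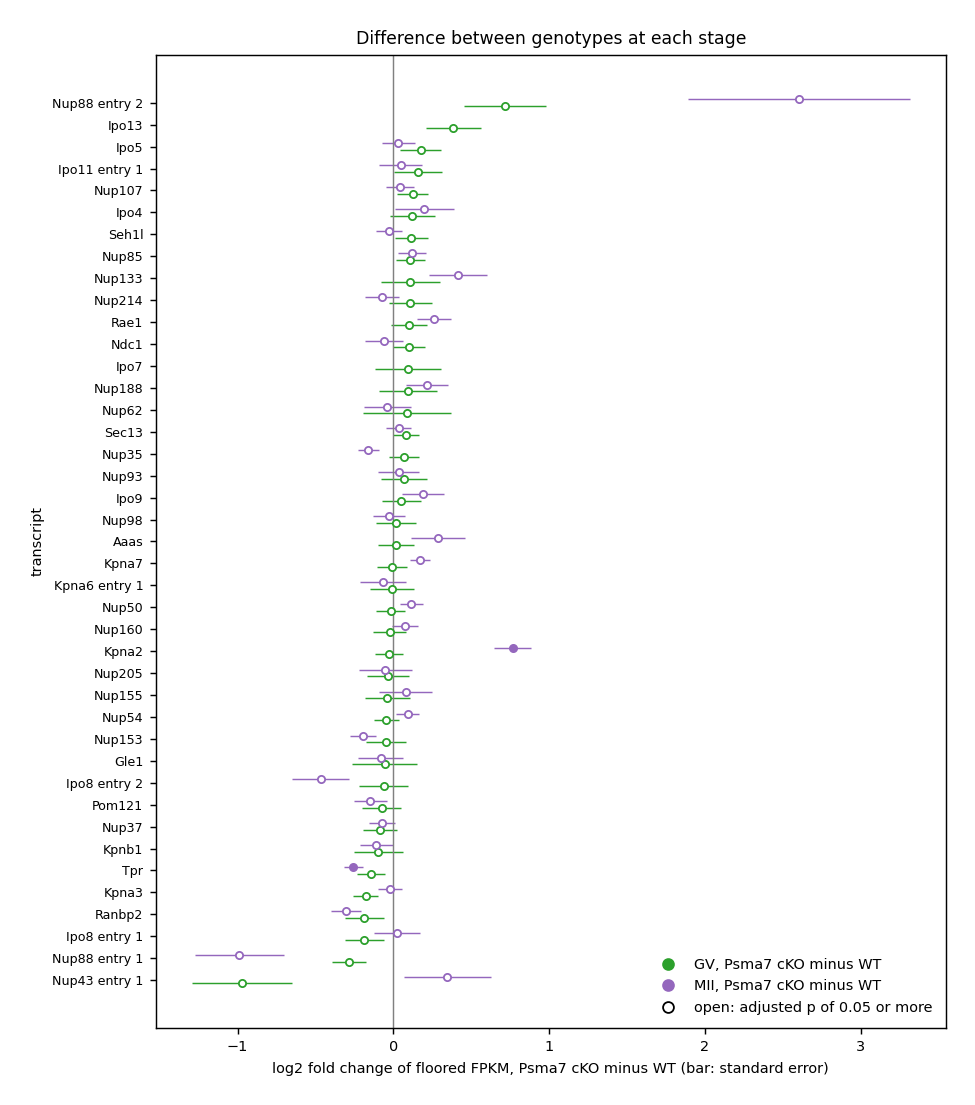
Log2 fold change of FPKM floored at 1, Psma7 cKO minus WT (x axis), for the members tested (y axis, sorted by the GV value), with standard errors, GV oocytes in green and MII eggs in purple; filled points have an adjusted p under 0.05. Kpna2 and Tpr in eggs are the filled points, and Nup88 entry 2 and entry 1 lie far to either side with wide errors.

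The genotype by stage term compares the change at maturation between Psma7 cKO and WT over all 16 libraries. It was above 0 for 1 member, Kpna2, and below 0 for 0 of 41 (limma), against 1.07% and 0.188% of 10615 entries. Over all entries this was 114 above and 20 below, which became 37 and 4 without Psma7 cKO GV replicate 3 and 605 and 46 without Psma7 cKO MII replicate 2. At an unadjusted p under 0.05, 3 members were above and 1 was below, beside 17.7% of all entries. For Kpna2 it was 0.79 (SE 0.15, adjusted p = 0.020), since Kpna2 fell by 1.99 in WT and by 1.20 in Psma7 cKO, and it passed in 23 of 24 alternatives, including all 16 that leave out a library. For Kpna7 it was 0.18 (SE 0.11, adjusted p = 0.45) and for Tpr −0.11 (SE 0.10, adjusted p = 0.60). For Nup43 entry 1 it was 1.32 (SE 0.47, adjusted p = 0.15), with GV libraries widely scattered as given above.

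Nup88 (chr11:70943058-70969973, minus strand) encodes the partner of Nup214 on the cytoplasmic side, and its entries moved against each other. Entry 1 was 55.9, 52.8, 51.5 and 60.7 FPKM in WT eggs and 56.4, 22.0, 21.4 and 22.3 FPKM in Psma7 cKO eggs, in order of replicate. Entry 2 was 0.19, 0.16, 0.30 and 0.17 FPKM in WT eggs and 0.16, 11.7, 9.85 and 11.8 FPKM in Psma7 cKO eggs. Replicate 1 of the Psma7 cKO eggs thus stood with the 4 WT eggs on both entries, and replicates 2, 3 and 4 stood together away from them.

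With all 8 egg libraries the log2 fold change was −0.99 (SE 0.29, adjusted p = 0.061) for entry 1 and 2.60 (SE 0.71, adjusted p = 0.055) for entry 2, and neither passed. Without Psma7 cKO replicate 1, singled out after its values were seen, they were −1.33 (SE 0.08, adjusted p = 0.00026) and 3.47 (SE 0.12, adjusted p = 2.6e-05). Entry 2 was the 1 member with means more than 3-fold apart in eggs, at 8.58-fold over the floor of 1 FPKM, beside 1.76% of all entries higher and 0.0211% lower by that measure. Entry 2 held 31.5% to 34.7% of the summed level in Psma7 cKO eggs 2 to 4, 0.28% in replicate 1 and 0.29% to 0.58% in WT eggs. The sum of both entries was 51.8 to 60.8 FPKM in WT eggs, 56.6 FPKM in replicate 1 and 31.3 to 34.1 FPKM in the other three, so the sum was lower there as well.

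GV oocytes of both genotypes held both entries. Entry 1 was 40.2, 37.2, 36.3 and 44.9 FPKM in WT and 28.3, 32.2, 37.3 and 32.5 FPKM in Psma7 cKO, and entry 2 was 4.09, 7.85, 3.91 and 2.92 FPKM in WT and 8.55, 5.80, 6.90 and 7.80 FPKM in Psma7 cKO. The genotypes overlapped on both entries, with log2 fold changes of −0.29 (adjusted p = 0.38) and 0.72 (adjusted p = 0.36). At WT maturation entry 1 rose by 0.48 (adjusted p = 0.00065) while entry 2 fell by 2.13 (SE 0.25, adjusted p = 1.6e-05), from 2.92 FPKM or more to 0.30 FPKM or less. In Psma7 cKO the change at maturation was −0.22 for entry 1 (adjusted p = 0.51) and −0.24 for entry 2 (adjusted p = 0.77), and without egg replicate 1 it was −0.57 (adjusted p = 0.0019) and 0.62 (adjusted p = 0.0071). The genotype by stage term was −0.70 (adjusted p = 0.27) and 1.89 (adjusted p = 0.24), and without that library −1.05 (adjusted p = 0.0025) and 2.75 (adjusted p = 0.0012). That library was singled out because of its Nup88 values, so the results without it are a description and not a test.

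The neighbours of Nup88 on chromosome 11 were looked at after these values were seen, so they are a description. Mis12, a kinetochore gene 49.6 kb away, also has 2 entries, and its entry 2 was 0.20, 0.20, 0.18 and 0.11 FPKM in WT eggs and 0.15, 6.34, 6.13 and 6.35 FPKM in Psma7 cKO eggs. Its entry 1 overlapped between genotypes, at 12.4 to 21.1 FPKM in WT eggs and at 8.02 to 16.6 FPKM in the Psma7 cKO. Med11, a Mediator subunit gene 489 kb away, had entry 2 at 0.077 to 0.31 FPKM in WT eggs, 0.15 FPKM in replicate 1 and 3.09 to 4.22 FPKM in the other Psma7 cKO eggs. On Med11 entry 1 replicate 1 lay between, at 12.6 FPKM, with WT eggs at 30.7 to 42.3 FPKM and the other Psma7 cKO eggs at 3.08 to 5.68 FPKM. The nearer neighbours C1qbp (7.86 kb away) and Derl2 (37.2 kb away) had an entry 2 at 0.30 FPKM or less in WT eggs, at 0 FPKM in replicate 1 and at 1.21 to 2.48 FPKM in the other Psma7 cKO eggs. On C1qbp entry 1 replicate 1 did not stand among WT eggs, at 27.8 FPKM (WT 17.6 to 18.9 FPKM, the other Psma7 cKO eggs 11.3 to 18.2 FPKM). On Derl2 entry 1 it lay between the 2 sets and close to both, at 5.95 FPKM (WT 5.97 to 6.94 FPKM, the others 4.34 to 5.91 FPKM). Over the whole table, 13 entries had Psma7 cKO eggs 2 to 4 over 2-fold to 1 side of all WT eggs and replicate 1. Of these, 8 lie on chromosome 11, and 2 (Apitd1 and Gsg2) had no position under those names in the annotation used. Those 2 are thus in no chromosome's count. The share of all entries that lie on chromosome 11 was not counted, so the 8 cannot be set against it. Of those 8, 5 are the Nup88, Med11 and Mis12 entries already looked at, and the others are 2610507I01Rik, 4930524B15Rik and Cnot8. In GV oocytes 4930524B15Rik went the other way, at 3.14 to 5.84 FPKM in WT and 0.093 FPKM or less in Psma7 cKO. Its egg values were 0.074 FPKM or less in WT, 0 FPKM in replicate 1 and 3.49 to 5.35 FPKM in the other Psma7 cKO eggs. The rest of the 13 with a position are C87977 and Oog2 on chromosome 4 and Mansc4 on chromosome 6. C87977 had the widest gap of the 13, at 51.3, 18.9 and 66.7 FPKM in Psma7 cKO eggs 2 to 4, against 0.60 FPKM in replicate 1. With replicate 2 in the place of replicate 1 the count was also 13, with 0 on chromosome 11 and 1 without a position. With replicate 3 or 4 it was 0. Which transcripts the paired entries stand for, and what sets replicate 1 apart, was not tested. The labels give no strain background for the pools, while the paper states that the floxed mice were C57BL/6. At Nup88 the loss of Psma7 and a difference between pools cannot be told apart.

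**Figure D5:**
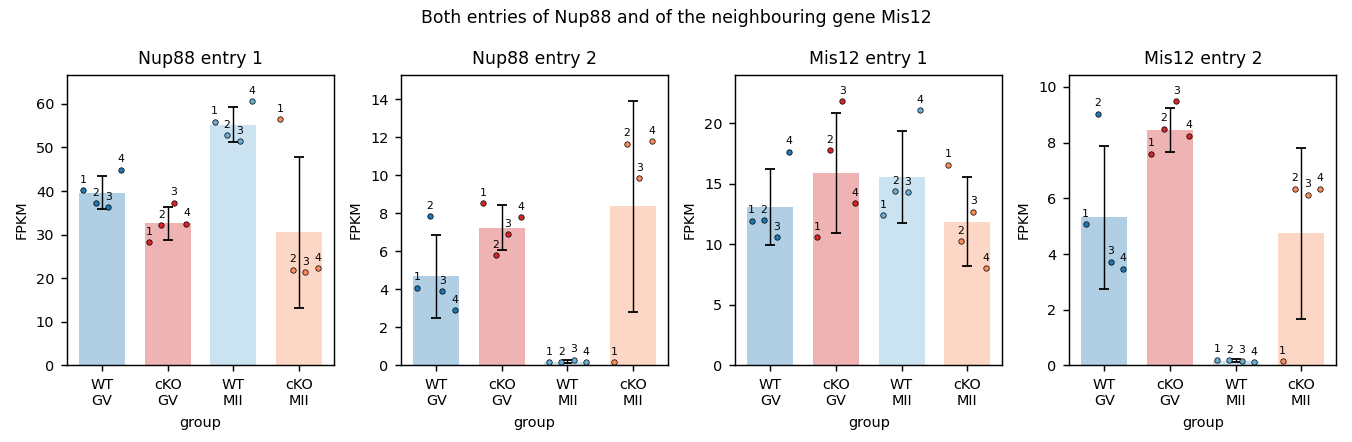
FPKM (y axis) of both entries of Nup88 and of Mis12 in the 4 groups (x axis), with bars at the mean, error bars of 1 SD and numbered points for the 4 replicates. On both Nup88 entries and on Mis12 entry 2, replicate 1 of the Psma7 cKO eggs lies with the WT eggs and replicates 2 to 4 lie apart from them.

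A list of 25 further transport genes set these members in context. It covered the Ran cycle, exportins, transportins, mRNA exporters and pore proteins that the name rule does not take. It held 27 entries, of which 23 were tested in GV oocytes, with 0 higher and 0 lower in Psma7 cKO (0.0994% and 0.0181% of all entries), and 21 in eggs, with 1 higher and 0 lower (6.53% and 1.49% of all entries). The 1 was Tmem33, a membrane protein of the endoplasmic reticulum and nuclear envelope, at 8.12 ± 0.29 FPKM in WT eggs, against 11.7 ± 1.37 FPKM in Psma7 cKO (log2 fold change 0.52, SE 0.10, adjusted p = 0.031). Its values under the alternatives are not given here, and the count of entries higher in eggs depended on single libraries, as given above. At maturation 5 of 23 entries rose and 13 fell in WT, and 3 of 22 rose and 9 fell in Psma7 cKO, against 26.1% and 52.4%, and 23.0% and 51.0%, of all entries. The median was −0.39 and −0.24. The falls were led by Ranbp3, a cofactor of the exportin Xpo1, from 57.3 ± 18.3 to 3.90 ± 0.27 FPKM in WT (log2 fold change −3.81, SE 0.23), followed by Snupn, the snurportin that brings snRNPs to the nucleus, at −2.88 and the mRNA export receptor Nxf1 at −2.68. Cse1l, the exportin that returns importin alpha to the cytoplasm, fell by 1.19 in WT and by 1.03 in Psma7 cKO, and Xpo1 by 0.63 and 0.60. Tnpo1 rose by 1.15 and 1.14, and Ahctf1, the protein that seeds pore assembly on chromatin, by 0.87 and 0.70. The pore proteins Nupl1 and Nupl2 had log2 fold changes of −0.02 and −0.17 in WT that did not pass (limma adjusted p = 0.87 and 0.37). The genotype by stage term passed for 0 of 23, against 1.07% of all entries above 0 and 0.188% below.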

How the data were processed

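RNA-seq values of 16 libraries were read from 1 deposited table. The authors made cDNA from pooled oocytes with ERCC spike-in by Smart-seq2, primed with oligo-dT, and deposited FPKM values per gene name, from TopHat2 2.1.1 and Cufflinks 2.2.1 on mm10 per the submitters' processing notes. The annotation is not given in the sources used here. Names listed more than once were kept as separate entries.

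Differences were tested with limma 3.58.1 in R 4.3.3, its variances moderated (eBayes) along a trend with level, on log2 FPKM after values below 1 FPKM were set to 1, the floor the study uses. Fold changes are on that scale, which understates changes of low transcripts. An entry was tested when it averaged 1 FPKM or more in the fitted libraries, with Benjamini-Hochberg adjustment over all of them and a threshold of 0.05. Each comparison was fitted to its 8 libraries, and the genotype by stage term to all 16, without a replicate term. The 3-fold counts compare means of floored values. The code was tested on simulated data.

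Groups and replicates came from the sample labels. Nothing in the labels says that same-numbered libraries share an animal, so p-values measure the spread between these pools. The spacing of FPKM values below 0.6 FPKM gave a depth estimate of 10.6 to 15.7 M fragments, median 13.6 M, so values well under 1 FPKM rest on few fragments. Exact counts are not given, and no counting interval was attached.

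The members, the marker and transport lists and the tests were chosen with earlier results of these data known. Members past the threshold in a genotype comparison or the interaction are given in every library, as are Kpna7, Kpna2 and both Nup88 entries, and in each stage comparison the 12 largest changes past the threshold are named. Positions and 3′ ends are from GENCODE M21 (GRCm38). Python 3.11.15, numpy 2.4.6, pandas 2.3.3 and matplotlib 3.10.9 were used. Alternatives tried were the floor at 0.1 FPKM, adding 1 FPKM, no filter, a mean of at least 5 FPKM, median-ratio rescaling, no trend, a replicate block, all 16 libraries in 1 fit, entries of 1 name summed, a 2-fold limit, and each library left out.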

Additional observations from a re-analysis of the deposited data

Results flagged for a closer look

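Among the 68 groups of 4 libraries examined for 17 named members, 3 held a library whose gap to its nearest neighbour exceeded Dixon's critical share of the group's range, which chance does in about 1 of 20 groups. Kpna2 was lowest in Psma7 cKO GV replicate 4, at 983 FPKM with the nearest library at 1133 FPKM. Nup88 entry 1 was highest in Psma7 cKO MII replicate 1, at 56.4 FPKM with the nearest at 22.3 FPKM. Nup88 entry 2 was lowest in the same library, at 0.1565 FPKM with the nearest at 9.85 FPKM. The change of Kpna2 at maturation differed between the genotypes, by 0.79 on the log2 scale in the test of the genotype by stage term (adjusted p = 0.020).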

How the results depend on the processing

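Of the counts of members, 203 values under the alternatives stayed within 1.5 times the value reported and 25 did not. Of the values of single named genes, 724 kept their direction and their side of the threshold, 23 no longer passed, 7 newly passed and 7 changed sign. The number of members more than 3-fold apart at WT maturation (5) was 9 with a floor of 0.1 FPKM, 12 at a 2-fold limit and 5 to 8 when a library was left out, with 8 without WT GV replicate 3. In Psma7 cKO (3) it was 5, 11 and 3 to 5, with 5 without Psma7 cKO MII replicate 1. In eggs, members higher in Psma7 cKO (1) numbered 0 without a filter, 2 with all 16 libraries in 1 fit, and 0 to 2 when a library was left out. Members lower in eggs (1) numbered 0 without a filter, 0 without a trend, 0 with the replicate block, 2 with all 16 libraries and 0 to 1 when a library was left out. For the genotype by stage term, members above 0 (1) numbered 0 without a filter and 1 to 2 when a library was left out, and members below 0 (0) numbered 0 to 1. Counts of 2 without a library arose without Psma7 cKO MII replicate 1, which added Nup88. The GV differences of Kpna2 and Kpna7 changed sign when a library was left out, ranging from −0.0494 to 0.0274 and from −0.0793 to 0.0436. At Psma7 cKO maturation Nup88 entry 1 was 0.0267 under median-ratio rescaling, and Nup88 entry 2 ran from −0.56 to 0.62 when a library was left out. The causes were not tested, other than the library named.

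Same-numbered libraries did not deviate together (16 correlations from −0.50 to 0.29, of which 2 were above 0.1), so the numbers were not taken as pairs. With the replicate block, 14 members rose and 17 fell at WT maturation and 12 and 16 in Psma7 cKO, 0 and 0 differed in GV oocytes, and 1 (Kpna2) was higher and 0 lower in eggs. Over all entries the block gave 101 higher and 7 lower in eggs, beside 620 and 141, and 53 above and 7 below 0 for the genotype by stage term, beside 114 and 20. The same egg counts were 14 and 3 without a filter and 1328 and 254 with all 16 libraries in 1 fit, which also took the GV counts from 11 and 2 to 124 and 33.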
